A study of Mus musculus with 24 samples.

Results

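DPP4_pos and DPP4_neg adipose progenitor cells of the inguinal fat pad were compared in female C57BL/6 mice, with 3 libraries of F_DPP4_pos and 3 of F_DPP4_neg. A gene entered the comparison where at least 3 of these 6 libraries had a normalised count of at least 10, which kept 13335 of the 27179 genes in the deposited table. Another 6539 genes were at 0 in all 6 libraries, and 7305 were above 0 but under that minimum. Both groups were cells sorted for the platelet-derived growth factor receptor PDGFRb from inguinal white adipose tissue, the subcutaneous depot of the groin. They differed by the surface peptidase DPP4, which gave the subpopulation its label. The study profiled progenitors of both sexes and of a second, gonadal depot by bulk RNA sequencing, in 24 libraries of 8 groups. Its title names heterogeneity by sex and depot as the subject. The labels give neither the ages of the mice nor whether the 3 libraries of a group came from separate animals, so p-values below show only how far these libraries vary, perhaps for technical reasons.

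Adipose stroma holds several kinds of fibroblast-like progenitors. In mouse subcutaneous fat, cells that carry DPP4 and express Pi16 lie in the connective tissue sheath around the depot, the reticular interstitium, and are regarded as an early progenitor pool. Cells without DPP4 include committed preadipocytes, which lie close to blood vessels and already express genes of fatty acid uptake, and a stromal population marked by the tissue factor gene F3 that restrains fat cell formation. In females the inguinal pad also contains the mammary gland, whose ducts are lined by epithelium.

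The F_DPP4_pos libraries held 14394801, 15279759 and 18221692 reads, and the F_DPP4_neg libraries held 17014324, 17165535 and 15698973. The deposited values are reads scaled by a size factor for each library, here called normalised counts, and are not scaled by gene length, so levels are compared between libraries and not between genes. On the log2 scale, libraries of the same group had r of 0.985 to 0.99, and no pair agreed within sampling noise. In F_DPP4_pos libraries 12489 to 12714 genes had a normalised count of at least 10, against 13299 to 13539 genes in F_DPP4_neg libraries. Transcripts of other cell types were unequal between the groups: the 22 genes of an epithelial marker list summed to 822 to 1263 normalised counts in F_DPP4_pos and to 13685 to 33444 in F_DPP4_neg. In bulk libraries fewer cells of a type and less RNA per cell cannot be told apart.

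The subpopulations differed widely. Of 13335 genes tested, 6303 (47.3%) passed the test, limma on log2(normalised count + 1) with a Benjamini-Hochberg adjusted p under 0.05, and these are the genes called changed below. In F_DPP4_pos cells 2990 genes (22.4%) were higher and 3313 (24.8%) were lower. The larger changes were mostly decreases: 714 genes rose and 1566 fell by more than 2-fold, 163 rose and 822 fell by more than 4-fold, and 180 fell by more than 16-fold while none rose by that much. Of the tested genes 62 passed the minimum only through F_DPP4_pos and 559 only through F_DPP4_neg, so these splits depend on it; with a minimum of 50, 571 rose and 811 fell by more than 2-fold. All 3 libraries of one group lay above all 3 of the other for 7808 genes (58.6%). The median log2 fold change over all tested genes was -0.02. With quantile normalization 3521 genes were higher and 2967 lower, and of the genes past 2-fold 1059 were higher and 1174 lower.

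**Figure D1:**
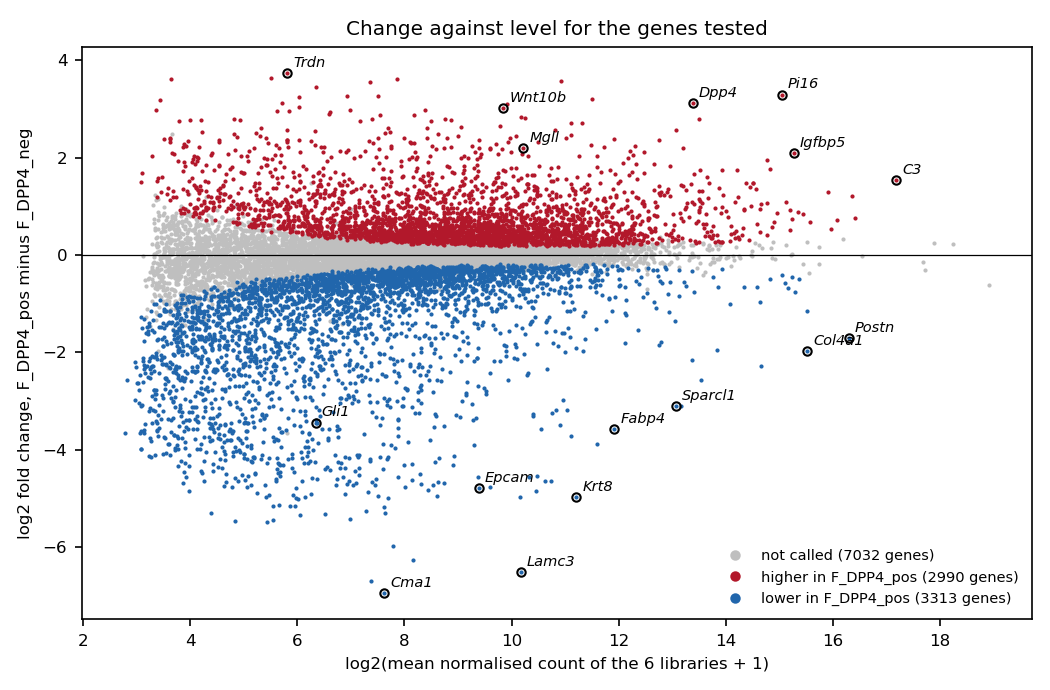
Log2 fold change of F_DPP4_pos minus F_DPP4_neg (vertical axis) against the log2 mean normalised count of the 6 libraries (horizontal axis), 1 point per tested gene, coloured by the limma call. Lamc3 and the mast cell gene Cma1 lie lowest among the labelled genes, Trdn lies highest, and the genes past 16-fold are all on the lower side.

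The sorted gene itself checked the labels. Dpp4, on chromosome 2 (chr2:62330073-62412231 in GRCm38, minus strand), had 17356, 20848 and 18412 normalised counts in F_DPP4_pos libraries, against 4213, 2124 and 1150 in F_DPP4_neg libraries. The groups did not overlap, and among the F_DPP4_neg libraries replicate 1 kept the most Dpp4 RNA. Pdgfrb, the gene of the receptor used for the sort, was at 2149, 2374 and 2550 in F_DPP4_pos, against 3338, 3863 and 3920 in F_DPP4_neg, a log2 fold change of -0.65 ± 0.09 (SE, limma adjusted p = 0.000412). Pdgfrb RNA was therefore present in all 6 libraries.

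All 18 genes of an interstitial progenitor list were higher in F_DPP4_pos, where 22.4% of all tested genes were. Their median log2 fold change was 2.21, beside -0.02 over all genes. Dpp4, the sorted gene, is 1 of the 18. This list and those below were chosen with earlier results of these data known, so their counts are not independent support. The counts of every list below stand beside 22.4% higher and 24.8% lower of all tested genes. Pi16, which encodes a secreted peptidase inhibitor and lies at chr17:29317680-29330593, had 54926, 69536 and 58036 normalised counts in F_DPP4_pos libraries, against 11178, 6285 and 3360 in F_DPP4_neg libraries. The groups stood well apart, and the log2 fold change was 3.29 ± 0.34 (SE, limma adjusted p = 7.21e-05). Anxa3, an annexin that binds membranes in the presence of calcium, was at 14588, 13802 and 14807 in F_DPP4_pos, against 4900, 1955 and 1519 in F_DPP4_neg (2.56 ± 0.34, limma adjusted p = 0.00027). Sema3c, a secreted semaphorin, was at 18352, 22818 and 18816 in F_DPP4_pos, against 5296, 2661 and 1659 in F_DPP4_neg (2.80 ± 0.33, adjusted p = 0.000136).

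The F_DPP4_neg libraries were not alike for these genes. For 17 of the 18 interstitial genes replicate 1 was the highest F_DPP4_neg library, as it was for Dpp4. The same held for 152 of the 163 genes that were higher in F_DPP4_pos by more than 4-fold. Of the 822 genes that were lower by more than 4-fold, 35 were highest in F_DPP4_neg replicate 1, 459 in replicate 2 and 328 in replicate 3. Replicate 2 was also the highest F_DPP4_neg library for 15 of 20 tested epithelial markers. The parts of residual Dpp4 expression and of epithelial RNA in these fold changes were not tested. Without F_DPP4_neg replicate 1, Akr1c18, which encodes a hydroxysteroid dehydrogenase, moved from a log2 fold change of 3.21 ± 0.56 to 4.01; it had 5447, 4750 and 4920 normalised counts in F_DPP4_pos, against 1656, 446 and 218 in F_DPP4_neg. Without F_DPP4_neg replicate 3 its value was 2.55.

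The 15 highest fold changes of called, non-overlapping genes whose higher group averaged 100 or more spanned log2 values of 2.99 to 3.74. Trdn, the gene of triadin, a protein of the calcium store of muscle, led them with 120, 61.5 and 125 normalised counts in F_DPP4_pos, against 11.1, 8.51 and 2.48 in F_DPP4_neg (3.74 ± 0.46, limma adjusted p = 0.000174). Myoc, which encodes the secreted glycoprotein myocilin, had 2864, 4834 and 3016 in F_DPP4_pos, against 403, 383 and 159 in F_DPP4_neg (3.57 ± 0.33, adjusted p = 3.56e-05). Both genes kept a wide gap between the groups. Gpr1, a receptor for the adipokine chemerin, had 275, 357 and 328 in F_DPP4_pos, against 77.9, 31.7 and 13.2 in F_DPP4_neg (3.26 ± 0.48, adjusted p = 0.000488; 3.89 without F_DPP4_neg replicate 1 and 2.65 without replicate 3). Igsf1 (3.55), Krt23 (3.46), Bco2 (3.27), Tmem28 (3.25), Dhrs9 (3.11), Akr1c19 (3.04) and the long non-coding RNA Miat (2.99) completed the group with Cldn11 (3.62), Pi16, Akr1c18, Dpp4 and Wnt10b. Leaving out F_DPP4_neg replicate 1 raised Bco2 to 3.88, Tmem28 to 3.83, Dhrs9 to 3.94 and Cldn11 to 4.64; leaving out F_DPP4_neg replicate 3 lowered Tmem28 to 2.63, Dhrs9 to 2.46 and Cldn11 to 2.75.

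**Figure D2:**
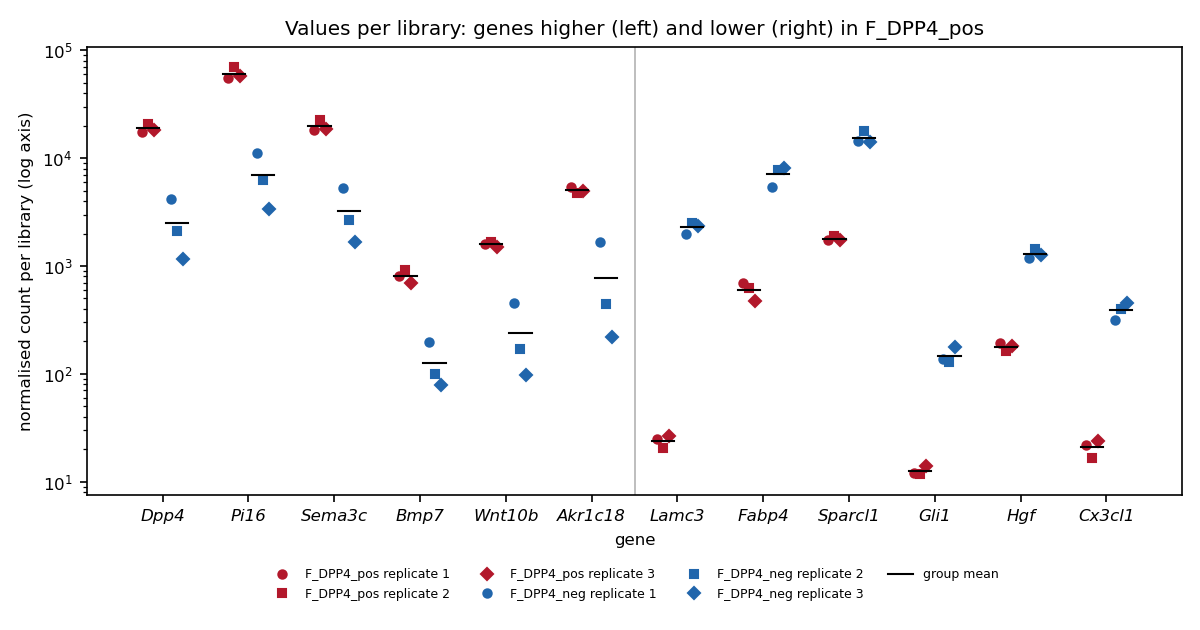
Normalised counts per library on a log axis for 12 genes, with F_DPP4_pos in red left of F_DPP4_neg in blue; marker shapes stand for replicates 1, 2 and 3 and bars for group means. For the 6 genes on the left the F_DPP4_neg libraries spread, with replicate 1 highest in each, while for the 6 genes on the right neither group spreads as far and no libraries overlap.

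Genes of the committed preadipocyte, also listed with earlier results known, moved the other way. Of 18 listed, 17 were lower in F_DPP4_pos and none was higher, with a median log2 fold change of -1.96. The remaining gene, Ggt5, was at 2242, 1548 and 2652 in F_DPP4_pos, against 2816, 1959 and 3157 in F_DPP4_neg, and was not called. Of the 18, 1 passed the minimum only through F_DPP4_neg, so its direction was set by it. Fabp4, the fatty acid binding protein of fat cells and their precursors, had 694, 626 and 472 normalised counts in F_DPP4_pos, against 5426, 7801 and 8175 in F_DPP4_neg (-3.57 ± 0.18, limma adjusted p = 1.36e-06). Cd36, a fatty acid transporter of the cell surface, had 400, 343 and 259 in F_DPP4_pos, against 2711, 2973 and 3749 in F_DPP4_neg (-3.24 ± 0.16, adjusted p = 1.57e-06). In both genes even the lowest F_DPP4_neg library lay far above every F_DPP4_pos library. Sparcl1, a matricellular protein gene, had 1751, 1880 and 1736 in F_DPP4_pos, against 14430, 17772 and 14070 in F_DPP4_neg (-3.10 ± 0.10, adjusted p = 2.93e-07).

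Car3, the carbonic anhydrase abundant in fat, fell by 3.67 ± 0.37 on the log2 scale and Cxcl14, a chemokine, by 3.25 ± 0.19. Apoe, the apolipoprotein that carries lipid between cells, was uneven: it had 8641, 2256 and 2099 normalised counts in F_DPP4_pos, against 26655, 10246 and 13301 in F_DPP4_neg (-2.16 ± 0.51, limma adjusted p = 0.00697). Replicate 1 was the highest library of both groups, and without F_DPP4_pos replicate 1 the log2 fold change was -2.82. For the committed list as a whole, replicate 3 was the highest F_DPP4_neg library for 13 of 18 genes. Of 8 genes of the F3-positive stromal population 7 were lower in F_DPP4_pos, with a median of -1.54. F3 itself had 472, 524 and 497 in F_DPP4_pos, against 1228, 1682 and 1514 in F_DPP4_neg (-1.56 ± 0.11, adjusted p = 9.87e-06), and Clec11a, a secreted lectin that acts on bone stroma, fell by 2.30 ± 0.14.

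Regulators of fat cell formation split between the groups. Of 22 adipogenic transcription factor genes 8 were higher and 7 lower in F_DPP4_pos, with a median of 0.02. Pparg, the nuclear receptor that drives fat cell differentiation, had 55.0, 49.7 and 55.4 normalised counts in F_DPP4_pos, against 164, 147 and 213 in F_DPP4_neg (-1.68 ± 0.16, limma adjusted p = 4.08e-05). Klf5, which acts early in adipogenesis, had 63.0, 58.5 and 56.2 in F_DPP4_pos, against 277, 380 and 354 in F_DPP4_neg (-2.48 ± 0.14, adjusted p = 2.44e-06). Both genes were low in all 3 F_DPP4_pos libraries. Gata3 and Gata2, which restrain adipogenesis, also fell, by 2.55 ± 0.32 and 2.06 ± 0.44 on the log2 scale. Gata3 was highest in F_DPP4_neg replicate 2, as were 15 of 20 epithelial markers, and its log2 fold change in male mice was 2.26. Gata2 had 5.0, 5.85 and 2.48 in F_DPP4_pos and passed the minimum only through F_DPP4_neg. The part of other cells in both results was not tested. Ebf2, a marker of progenitors with brown and beige potential, was higher, with 1886, 2288 and 1959 in F_DPP4_pos, against 854, 746 and 764 in F_DPP4_neg (1.37 ± 0.09, adjusted p = 7.07e-06). Klf4, an early inducer of Cebpb, had 21844, 29230 and 29600 in F_DPP4_pos, against 12418, 10602 and 12269 in F_DPP4_neg (1.18 ± 0.14, adjusted p = 0.000124).

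Lipid handling genes leaned to F_DPP4_neg: 13 of 18 were lower and 3 higher in F_DPP4_pos, with a median of -1.13. Lpl, the lipase that frees fatty acids from circulating lipoproteins, had 5090, 6426 and 6490 normalised counts in F_DPP4_pos, against 18000, 24156 and 28031 in F_DPP4_neg (-1.95 ± 0.16, limma adjusted p = 2.21e-05), and Plin4, a lipid droplet coat gene, fell by 2.49 ± 0.15. The largest of the 3 increases was that of Mgll, the monoglyceride lipase, with 2002, 1945 and 1804 in F_DPP4_pos, against 728, 348 and 287 in F_DPP4_neg (2.19 ± 0.27, adjusted p = 0.000184). Every F_DPP4_pos library held more Mgll than any F_DPP4_neg library. Markers of mature fat cells were low in both groups: 5 of 8 passed the minimum, the 8 summed to between 46.3 and 231 in F_DPP4_pos and to between 200 and 477 in F_DPP4_neg, and 4 were lower in F_DPP4_pos. Replicate 1 was the highest F_DPP4_pos library for all 5. Adipoq, the adiponectin gene, had 24, 8.78 and 5.78 in F_DPP4_pos, against 62.8, 25.5 and 40.5 in F_DPP4_neg (-1.80 ± 0.49, adjusted p = 0.0132), and Plin1 fell by 2.37 ± 0.56, or by 3.04 without F_DPP4_pos replicate 1. Pck1 and Cidec lost their calls in 5 of the 6 fits that left out a library, with adjusted p between 0.0559 and 0.146 in those, and with a stricter minimum for testing no gene of this list was called.

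Fatty acid synthesis genes showed no common direction, 5 higher and 3 lower of 12, beside 22.4% higher and 24.8% lower of all tested genes. Acly, which makes cytosolic acetyl-CoA from citrate, was higher (0.66 ± 0.12, limma adjusted p = 0.00129), as were Me1 (0.89 ± 0.11), Scd2 (0.89 ± 0.15) and Fads2 (0.60 ± 0.14). Elovl6, a fatty acid elongase, fell by 0.67 ± 0.10 and Thrsp by 1.37 ± 0.35 on the log2 scale. Thrsp passed the minimum only through F_DPP4_neg, so its direction was set by it.

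Cholesterol synthesis and uptake genes were lower in F_DPP4_pos: 16 of 25 were lower, none was higher and the median was -0.79. Sterol-regulated genes share promoter elements, and SREBP2, the factor that senses low sterol, acts at many of them together with NF-Y, which binds the CCAAT box. The 250 bases before the RefSeq transcription start of 4 of these genes (GRCm38.p6, read on the gene's own strand) show how often that box recurs; capitals mark CCAAT, or its reverse complement ATTGG, and the sterol element TCACNCCAC.
Idi1 (chr13:8885356-8885605, plus strand): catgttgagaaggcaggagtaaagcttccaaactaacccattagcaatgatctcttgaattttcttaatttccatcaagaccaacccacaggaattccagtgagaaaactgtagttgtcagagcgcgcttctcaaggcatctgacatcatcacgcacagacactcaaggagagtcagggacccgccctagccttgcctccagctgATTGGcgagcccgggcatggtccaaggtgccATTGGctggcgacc
Cyp51 (chr5:4104698-4104947, minus strand): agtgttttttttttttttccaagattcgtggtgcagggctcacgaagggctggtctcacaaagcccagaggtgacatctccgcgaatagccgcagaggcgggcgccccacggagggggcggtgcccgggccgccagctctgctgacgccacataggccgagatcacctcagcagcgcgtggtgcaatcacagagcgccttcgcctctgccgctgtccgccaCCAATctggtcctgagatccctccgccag
Msmo1 (chr8:64733579-64733828, minus strand): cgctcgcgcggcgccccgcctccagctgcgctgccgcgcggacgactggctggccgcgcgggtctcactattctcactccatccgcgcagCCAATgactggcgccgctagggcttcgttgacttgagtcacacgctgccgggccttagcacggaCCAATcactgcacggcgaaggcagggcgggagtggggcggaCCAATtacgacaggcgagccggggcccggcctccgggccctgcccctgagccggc
Hmgcs1 (chr13:119690101-119690350, plus strand): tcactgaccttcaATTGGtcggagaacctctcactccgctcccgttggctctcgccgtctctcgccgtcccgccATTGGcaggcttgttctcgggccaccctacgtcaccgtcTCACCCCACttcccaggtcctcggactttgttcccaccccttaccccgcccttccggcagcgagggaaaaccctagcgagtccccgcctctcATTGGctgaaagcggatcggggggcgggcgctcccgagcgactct
Both motifs were searched on both strands and do not overlap each other here. Msmo1 and Hmgcs1 held 3 CCAAT boxes each, Idi1 held 2 and Cyp51 held 1, and Hmgcs1 alone of the 4 held the sterol element, 137 bases before the start. Over all promoter entries of this length 33.8% held a CCAAT box and 1.05% the sterol element; over tested genes with an entry the shares were 40.3% of 10211 and 1.24%, and over the 17 cholesterol genes with an entry they were 94.1% and 5.88%. These are matches of letters, not measured binding.

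The expression of those promoters' genes differed in every library. Idi1, an isomerase of the isoprenoid steps, had 32.0, 18.5 and 53.7 normalised counts in F_DPP4_pos, against 151, 107 and 119 in F_DPP4_neg (-1.93 ± 0.33, limma adjusted p = 0.00102). Cyp51, the lanosterol demethylase, had 210, 222 and 419 in F_DPP4_pos, against 903, 892 and 819 in F_DPP4_neg (-1.69 ± 0.22, adjusted p = 0.000238). Msmo1, the methylsterol oxidase, had 99.0, 73.2 and 157 in F_DPP4_pos, against 373, 312 and 315 in F_DPP4_neg (-1.66 ± 0.23, adjusted p = 0.000351). In all 3 genes replicate 3 was the highest F_DPP4_pos library yet below every F_DPP4_neg library. Hmgcs1, the synthase that commits acetyl-CoA to the pathway, was at 936, 718 and 1317 in F_DPP4_pos, against 2584, 2125 and 2270 in F_DPP4_neg (-1.27 ± 0.18, adjusted p = 0.000438). Sqle, squalene epoxidase, showed the largest decrease of the list, with 130, 109 and 171 in F_DPP4_pos, against 694, 775 and 597 in F_DPP4_neg (-2.34 ± 0.16, adjusted p = 7.53e-06). Stard4, a sterol carrier, fell by 1.75 ± 0.26. Replicate 3 was the highest F_DPP4_pos library for 20 of the 25 genes.

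WNT signals, which hold back fat cell formation when they act through beta-catenin, differed by ligand. Of 13 tested WNT ligand genes 8 were higher and 4 lower in F_DPP4_pos, with a median of 0.99. Wnt10b, the ligand best known for repressing adipogenesis, lies at chr15:98770712-98778150 and had 1614, 1684 and 1497 normalised counts in F_DPP4_pos, against 455, 169 and 98.3 in F_DPP4_neg (3.02 ± 0.43, limma adjusted p = 0.000368; 3.62 without F_DPP4_neg replicate 1). Wnt1 had 113, 89.7 and 89.2 in F_DPP4_pos, against 29.4, 10.1 and 4.95 in F_DPP4_neg (2.96 ± 0.49, adjusted p = 0.000886; 3.59 without F_DPP4_neg replicate 1). Both ligands were high in every F_DPP4_pos library. Wnt9a (1.82) and Wnt5b (1.27), Wnt2 (1.22) and Wnt11 (1.17), Wnt16 (0.99) and Wnt2b (0.82) were the other 6 that rose. The 4 that fell were low in F_DPP4_pos, and 3 of them passed the minimum only through F_DPP4_neg. Wnt4, a ligand active in mammary ducts, had 6.0, 11.7 and 8.26 in F_DPP4_pos, against 77.1, 246 and 108 in F_DPP4_neg (-3.77 ± 0.40, adjusted p = 7.85e-05). Wnt7b had 5.0, 3.90 and 0.826 in F_DPP4_pos, against 42.9, 135 and 63.6 in F_DPP4_neg (-4.27 ± 0.53, adjusted p = 0.000174). For Wnt4 and Wnt7b, F_DPP4_neg replicate 2 was highest, as for 15 of 20 epithelial markers; the part of epithelial RNA in these results was not tested. Wnt9b fell by 3.80, or by 4.41 without F_DPP4_pos replicate 1, and Wnt6 by 2.47.

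Receptors, antagonists and targets of WNT signalling leaned the other way, 7 higher and 13 lower of 26. Sfrp4, a secreted antagonist, had 7921, 7953 and 8901 normalised counts in F_DPP4_pos, against 2678, 1499 and 1337 in F_DPP4_neg (2.23 ± 0.22, limma adjusted p = 4.63e-05). Dkk2, another antagonist, was higher by 1.59 ± 0.17, as were the feedback inhibitor Apcdd1 by 1.59 ± 0.32 and Dact1 by 1.53 ± 0.12. Fzd1, a frizzled receptor, had 410, 488 and 518 in F_DPP4_pos, against 1642, 2031 and 2140 in F_DPP4_neg (-2.03 ± 0.12, adjusted p = 3.27e-06). Tcf7, a nuclear partner of beta-catenin, fell by 2.27 ± 0.33. Secreted antagonists were thus among the genes that rose, and a frizzled receptor among those that fell.

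BMP ligands, members of the TGF-beta superfamily that can prime progenitors for adipogenesis, were mostly higher in F_DPP4_pos, as 16 of 27 BMP and GDF pathway genes rose and 8 fell, with a median of 0.53. Bmp7, which promotes brown fat formation, had 812, 915 and 688 normalised counts in F_DPP4_pos, against 199, 99.8 and 78.4 in F_DPP4_neg (2.78 ± 0.28, limma adjusted p = 6.17e-05). Bmp8a had 662, 504 and 567 in F_DPP4_pos, against 171, 54.9 and 38.8 in F_DPP4_neg (2.99 ± 0.43, adjusted p = 0.000415; 3.61 without F_DPP4_neg replicate 1). The other tested BMP ligand genes also rose, Bmp3 by 2.55 ± 0.33, Bmp6 by 2.30 ± 0.31, Bmp4 by 1.44 ± 0.21 and Bmp2 by 1.24 ± 0.20. Bmp1, which was also higher (0.65 ± 0.11), encodes a procollagen protease rather than a ligand. On the lower side stood Gdf10 (-1.97 ± 0.10), the antagonist Nog (-1.70 ± 0.19) and the receptor gene Bmpr1b, which had 4.0, 2.93 and 1.65 in F_DPP4_pos, against 13.5, 36.4 and 19.0 in F_DPP4_neg. Bmpr1b passed the minimum only through F_DPP4_neg, so its direction was set by it.

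TGF-beta pathway genes divided evenly, 9 higher and 9 lower of 24, beside 22.4% higher and 24.8% lower of all tested genes. The receptor gene Tgfbr2 was higher, with 17569, 18266 and 17622 normalised counts in F_DPP4_pos, against 10242, 7496 and 6538 in F_DPP4_neg (1.16 ± 0.15, limma adjusted p = 0.000209). Nov and Wisp2, genes of matricellular CCN proteins, rose by 2.33 ± 0.36 and 2.18 ± 0.26. Contractile genes induced by TGF-beta fell: Acta2, smooth muscle actin, had 31.0, 23.4 and 30.6 in F_DPP4_pos, against 227, 307 and 488 in F_DPP4_neg (-3.48 ± 0.25, adjusted p = 9.71e-06), and Tagln fell by 2.76 ± 0.19. Postn, a matricellular protein of remodelling tissue, was among the most abundant genes, with 35616, 37756 and 38900 in F_DPP4_pos, against 103361, 124416 and 142654 in F_DPP4_neg (-1.71 ± 0.16, adjusted p = 3.98e-05). Acta2 is also a mural cell marker, and 6 of 9 mural markers were lower in F_DPP4_pos; their part in the Acta2 result was not tested.

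Hedgehog signalling restrains adipogenesis, and its genes were lower or not called in F_DPP4_pos, apart from Cdon: 6 of 11 fell and 1 rose, with a median of -0.83. Gli1 and Hhip showed the largest changes of those given here. Gli1, a transcription factor and target of the pathway, had 12, 11.7 and 14 normalised counts in F_DPP4_pos, against 136, 129 and 177 in F_DPP4_neg (-3.44 ± 0.19, limma adjusted p = 2.34e-06). Hhip, a target that binds the ligands, had 5.0, 12.7 and 5.78 in F_DPP4_pos, against 131, 161 and 117 in F_DPP4_neg (-4.05 ± 0.31, adjusted p = 1.42e-05). Both were about at the minimum for testing in F_DPP4_pos and clearly above it in F_DPP4_neg. Gli2 fell by 1.6 ± 0.16, Ptch1 by 1.06 ± 0.20 and the coreceptor gene Boc by 0.83 ± 0.12. The 3 ligand genes Shh, Ihh and Dhh did not pass the minimum. Cdon, a coreceptor gene, was higher by 0.37 ± 0.11 (adjusted p = 0.0207) and was not called in 3 of the fits that left out a library.

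The IGF axis showed a change of binding protein. Igfbp5 had 61024, 75713 and 54477 normalised counts in F_DPP4_pos, against 20320, 14035 and 11478 in F_DPP4_neg (2.09 ± 0.21, limma adjusted p = 5.72e-05), and Igfbp6, which prefers IGF2, had 35676, 31824 and 36573 in F_DPP4_pos, against 17696, 12204 and 11492 in F_DPP4_neg (1.35 ± 0.16, adjusted p = 0.000147). Igfbp7 was lower, with 2602, 3160 and 3280 in F_DPP4_pos, against 9710, 10780 and 11751 in F_DPP4_neg (-1.84 ± 0.11, adjusted p = 3.56e-06). None of these 3 genes had overlapping groups. Pappa, a protease that cleaves IGF binding proteins, had 20.0, 10.7 and 9.09 in F_DPP4_pos, against 140, 176 and 170 in F_DPP4_neg (-3.58 ± 0.27, adjusted p = 1.24e-05). Igf2 fell by 1.55 ± 0.19. Igfbp2 was at 2.0, 4.88 and 0 in F_DPP4_pos, against 26.2, 35.6 and 92.5 in F_DPP4_neg, so few reads that its fitted fold depends on the added 1. Its direction was set by the minimum, which it passed only through F_DPP4_neg.

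Growth factor genes of the FGF and EGF families were mostly lower, 12 of 19, against 3 higher, with a median of -1.57. Of the 19, 3 passed the minimum only through F_DPP4_neg. Fgf10, a stromal signal to epithelium and to preadipocytes, had 216, 253 and 248 normalised counts in F_DPP4_pos, against 1077, 1136 and 1711 in F_DPP4_neg (-2.42 ± 0.16, limma adjusted p = 6.15e-06). The EGF receptor ligand genes Areg and Ereg had 15, 30.2 and 18.2 and 46.0, 47.8 and 33.0 in F_DPP4_pos, against 377, 1140 and 500 and 364, 442 and 292 in F_DPP4_neg. Areg (-4.82 ± 0.38, adjusted p = 1.52e-05), also a member of the epithelial list, and Ereg (-3.08 ± 0.19, adjusted p = 3.7e-06) were both highest in F_DPP4_neg replicate 2. On the higher side stood Fgf2 (1.59 ± 0.21), Fgf18 (1.49 ± 0.19) and the receptor gene Fgfr1 (0.78 ± 0.12).

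Angiogenic factors were divided in the same manner, 10 lower and 5 higher of 17. Hgf, a stromal ligand of the receptor MET, had 191, 162 and 179 normalised counts in F_DPP4_pos, against 1178, 1425 and 1251 in F_DPP4_neg (-2.85 ± 0.10, limma adjusted p = 2.93e-07). Angpt2, which loosens vessels, had 13, 26.3 and 14 in F_DPP4_pos, against 346, 599 and 546 in F_DPP4_neg (-4.76 ± 0.28, adjusted p = 3.27e-06). Ptn and Mdk, related heparin-binding growth factors, fell by 3.31 ± 0.29 and 2.99 ± 0.22. Of the PDGF genes, Pdgfc (2.11 ± 0.26) and Pdgfd (1.69 ± 0.17) were higher, while Pdgfb had 7.0, 10.7 and 9.09 in F_DPP4_pos, against 19.1, 41.8 and 38.0 in F_DPP4_neg (-1.71 ± 0.35, adjusted p = 0.00292).

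Retinoid genes were 4 higher and 7 lower of 14. Stra6, Crabp1 and Aldh1a2 passed the minimum only through F_DPP4_neg, so their direction was set by it. Aldh1a3, which makes retinoic acid, had 2992, 3480 and 2659 normalised counts in F_DPP4_pos, against 889, 449 and 328 in F_DPP4_neg (2.57 ± 0.29, limma adjusted p = 0.000111), and Aldh1a1, of the same function, was higher by 1.39 ± 0.11. Stra6, the receptor for the retinol carrier, had 1.0, 4.88 and 4.96 in F_DPP4_pos, against 73.9, 101 and 114 in F_DPP4_neg (-4.54 ± 0.43, adjusted p = 4.08e-05). The intracellular binding protein gene Crabp1 had 3.0, 8.78 and 5.78 in F_DPP4_pos, against 99.3, 158 and 79.3 in F_DPP4_neg (-4.08 ± 0.37, adjusted p = 3.21e-05), and Rbp4, the retinol carrier, fell by 1.83 ± 0.15. Aldh1a2, of the same function as Aldh1a3, had 6.0, 1.95 and 4.13 in F_DPP4_pos, against 26.2, 22.4 and 24.8 in F_DPP4_neg (-2.43 ± 0.39, limma adjusted p = 0.000805). Since its direction was set by the minimum, no contrast of direction with Aldh1a3 was read from it.

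Guidance genes were 9 higher and 13 lower of 27, and 3 of the 27, Robo2 among them, passed the minimum only through F_DPP4_neg. Class 3 semaphorins differed among themselves. Sema3d was higher, with 1640, 2135 and 1666 normalised counts in F_DPP4_pos, against 543, 301 and 221 in F_DPP4_neg (2.44 ± 0.27, limma adjusted p = 9.18e-05), as was Sema3e (2.40 ± 0.42), whereas Sema3g had 44.0, 42.9 and 50.4 in F_DPP4_pos, against 466, 778 and 739 in F_DPP4_neg (-3.79 ± 0.19, adjusted p = 1.36e-06). Robo2, a receptor for the repellent SLIT proteins, had 3.0, 9.75 and 9.09 in F_DPP4_pos, against 154, 241 and 214 in F_DPP4_neg (-4.73 ± 0.37, adjusted p = 1.42e-05), and Slit2, 1 of its ligands, fell by 2.42 ± 0.18.

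The matrix differed by layer. Of 30 basement membrane genes 16 were lower and 9 higher in F_DPP4_pos, with a median of -0.62, and 3 passed the minimum only through F_DPP4_neg. Lamc3, a laminin chain gene at chr2:31887291-31946539, had the smallest adjusted p among the genes named here, with 25, 20.5 and 26.4 normalised counts in F_DPP4_pos, against 2000, 2479 and 2349 in F_DPP4_neg (-6.51 ± 0.13, limma adjusted p = 8.57e-09). Egflam and Frem1, further genes of basement membrane proteins, had 49.0, 67.3 and 44.6 and 119, 136 and 102 in F_DPP4_pos, against 1091, 1901 and 1471 and 2093, 3456 and 3521 in F_DPP4_neg, with log2 fold changes of -4.75 ± 0.21 and -4.63 ± 0.19. All 3 stayed far below the F_DPP4_neg range in every F_DPP4_pos library. Among collagens of this layer, Col4a1 had 17880, 17549 and 22040 in F_DPP4_pos, against 64481, 84734 and 76152 in F_DPP4_neg (-1.97 ± 0.15, adjusted p = 1.28e-05), with Col4a2 (-2.28 ± 0.15), Col15a1 (-2.56 ± 0.14) and Col18a1 (-3.10 ± 0.16) in the same direction. Lama5, a laminin chain of epithelial membranes, fell by 3.91 ± 0.28 and was highest in F_DPP4_neg replicate 2.

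Elastic fibre, fibronectin and proteoglycan genes tended upward, 14 higher and 7 lower of 28, with a median of 0.37. Ogn and Aspn, small leucine-rich proteoglycan genes, rose by 1.75 ± 0.20 and 1.70 ± 0.15. Emilin2, an elastic fibre glycoprotein, had 18096, 19959 and 19644 normalised counts in F_DPP4_pos, against 8413, 5980 and 5002 in F_DPP4_neg (1.61 ± 0.17, limma adjusted p = 6.84e-05), and Eln, elastin, had 19325, 13765 and 17680 in F_DPP4_pos, against 11132, 4554 and 6043 in F_DPP4_neg (1.31 ± 0.28, adjusted p = 0.00363). Tnc, tenascin C of remodelling tissue, was lower, with 52.0, 44.9 and 49.6 in F_DPP4_pos, against 743, 1079 and 1987 in F_DPP4_neg (-4.55 ± 0.28, adjusted p = 4.23e-06). Of 17 fibrillar and associated collagens 8 were lower and 2 higher. Col14a1 rose, with 43828, 47878 and 42959 in F_DPP4_pos, against 18682, 11716 and 10354 in F_DPP4_neg (1.77 ± 0.20, adjusted p = 9.73e-05). Col5a3 fell by 0.97 ± 0.13 and Col7a1, an anchoring fibril gene, by 4.19 ± 0.44. Col11a1 was at 0, 0 and 4.96 in F_DPP4_pos, against 36.5, 37.9 and 66.1 in F_DPP4_neg, and passed the minimum only through F_DPP4_neg. Col1a1, a chain of type I collagen, was not called, at 183725, 171217 and 223894 in F_DPP4_pos and 230642, 213032 and 276159 in F_DPP4_neg.

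Proteases and their inhibitors showed 9 genes higher and 8 lower of 21, and 2 of the 21 passed the minimum only through F_DPP4_neg. Adamts16 and Adamts5, matrix-cleaving proteases, rose by 2.17 ± 0.21 and 1.35 ± 0.13, and Timp2, an inhibitor of them and of matrix metalloproteinases, had 83290, 91621 and 85646 normalised counts in F_DPP4_pos, against 42724, 33917 and 30682 in F_DPP4_neg (1.29 ± 0.16, limma adjusted p = 0.000153). Adamts12 was lower, with 3070, 3119 and 3372 in F_DPP4_pos, against 9961, 11480 and 11751 in F_DPP4_neg (-1.79 ± 0.09, adjusted p = 1.56e-06). Adam12, a membrane protease of the related ADAM class, fell by 3.89 ± 0.15.

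Immune mediators were present in both subpopulations. Cytokine and chemokine genes numbered 6 higher and 10 lower of 23, beside 22.4% higher and 24.8% lower of all tested genes. Cx3cl1, the ligand that holds monocytes, had 22.0, 16.6 and 24 normalised counts in F_DPP4_pos, against 312, 400 and 452 in F_DPP4_neg (-4.15 ± 0.19, limma adjusted p = 8.24e-07), and Cxcl9, a T cell attractant, fell by 2.14 ± 0.29. Cxcl13, a B cell attractant, had 1010, 1911 and 1865 in F_DPP4_pos, against 528, 396 and 417 in F_DPP4_neg (1.79 ± 0.22, adjusted p = 0.000178), and Il15, a growth factor of lymphocytes, rose by 1.61 ± 0.27. Complement and acute phase genes were 6 higher and 7 lower of 17. C3, the central complement protein, was among the most abundant transcripts, with 191745, 257883 and 210077 in F_DPP4_pos, against 94176, 72007 and 61737 in F_DPP4_neg (1.54 ± 0.22, adjusted p = 0.000367). Cd55, which protects cells from complement and marks interstitial progenitors, was higher by 2.06 ± 0.25, while the antimicrobial genes Ltf and Lcn2, both also expressed by mammary epithelium, fell by 4.22 ± 0.38 and 3.05 ± 0.25. In male mice Ltf fell further, with a log2 difference, F minus M, of 3.68 that limma called and edgeR did not.

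Interferon-response genes were unequal among the F_DPP4_pos libraries. Of 25 listed 11 were higher and 1 lower in F_DPP4_pos, with a median of 0.58, and replicate 3 was the highest F_DPP4_pos library for 24 of the 25. Irf7, the factor that amplifies the response, had 2260, 3105 and 4468 normalised counts in F_DPP4_pos, against 1227, 1215 and 1316 in F_DPP4_neg (1.33 ± 0.20, limma adjusted p = 0.000487). Bst2, a factor that tethers virus particles, had 2296, 2633 and 4244 in F_DPP4_pos, against 1387, 1057 and 1333 in F_DPP4_neg (1.24 ± 0.20, adjusted p = 0.000866). The groups did not overlap for either gene, and F_DPP4_pos replicate 3 stood above the other two libraries. Mx1 (1.06 ± 0.38, adjusted p = 0.0447) lost its call without F_DPP4_pos replicate 3 (0.59, adjusted p = 0.128) and without F_DPP4_pos replicate 2, F_DPP4_neg replicate 1 or F_DPP4_neg replicate 2 (0.83 to 1.23, adjusted p = 0.0562 to 0.11). MHC class I genes had the same layout, 8 higher of 13 with a median of 0.40, and again replicate 3 was the highest F_DPP4_pos library for all 13; 4 were called higher without it, 4 without F_DPP4_neg replicate 2, 5 without F_DPP4_pos replicate 2 and 5 with quantile normalization. H2-M3 rose by 0.64 ± 0.10 and Psmb10, an immunoproteasome subunit, by 0.62 ± 0.12. The H2 genes share sequence, so reads may be split among them.

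Steroid receptor and metabolism genes were 7 higher and 2 lower of 14, with a median of 0.72. Esr1, the oestrogen receptor alpha, had 1173, 1228 and 1155 normalised counts in F_DPP4_pos, against 746, 706 and 624 in F_DPP4_neg (0.78 ± 0.08, limma adjusted p = 8.69e-05). Greb1, a classical oestrogen-induced gene, had 1502, 763 and 1469 in F_DPP4_pos, against 504, 156 and 218 in F_DPP4_neg (2.20 ± 0.39, adjusted p = 0.00144). Esr1 varied little within F_DPP4_pos, and the groups did not overlap for either gene. Akr1c14, a hydroxysteroid dehydrogenase with close relatives whose reads may be shared, rose by 2.70 ± 0.41, or by 3.32 without F_DPP4_neg replicate 1.

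Counts of further programmes stand beside the 47.3% called of all tested genes. Of 28 oxidative phosphorylation genes 2 were higher and 1 lower, with a median of -0.003, and of 26 cell cycle genes 1 was higher and 3 lower, or 2 higher and 8 lower with the replicate block and 9 lower in the fit of 24 libraries. Replicate 3 was the highest F_DPP4_pos library for 21 of the 26 cell cycle genes and the highest F_DPP4_neg library for 18, and without F_DPP4_pos replicate 3 the number lower was 8. Ccnd2, a G1 cyclin, had 1238, 1368 and 1414 normalised counts in F_DPP4_pos, against 1996, 2367 and 2303 in F_DPP4_neg (-0.73 ± 0.09, limma adjusted p = 0.000167). Cytosolic ribosomal protein genes were 15 higher of 27, none lower, by small amounts (median 0.22), and with quantile normalization 3 were higher and 1 lower. Without F_DPP4_pos replicate 2 or 3, or F_DPP4_neg replicate 2 or 3, 7 to 9 ribosomal genes were called higher. Of 21 glutathione and oxidant defence genes 11 were higher and none lower (3 lower with quantile normalization, and 1 with the replicate block, in the fit of 24 libraries and without F_DPP4_neg replicate 1), led by Duox1 (2.27 ± 0.33) and Nox4 (2.18 ± 0.20), which make peroxide, and by Gpx3, a secreted peroxidase, with 26423, 30619 and 40572 in F_DPP4_pos, against 15163, 11572 and 10221 in F_DPP4_neg (1.4 ± 0.19, adjusted p = 0.000255). Immediate early genes, which cell dissociation can induce, were 6 higher and 4 lower of 21, heat shock and unfolded protein genes 2 higher and 6 lower of 17, lysosomal genes 7 higher and 3 lower of 20, and glycolysis and hypoxia genes 5 higher and 4 lower of 19. The balance turned with quantile normalization, to 3 higher and 10 lower for immediate early genes, 2 higher and 6 lower for lysosomal genes and 2 higher and 4 lower for glycolysis and hypoxia genes. Without F_DPP4_pos replicate 2 or 3, or F_DPP4_neg replicate 2 or 3, 2 to 4 lysosomal genes and 2 to 3 glycolysis genes were called higher.

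**Figure D3:**
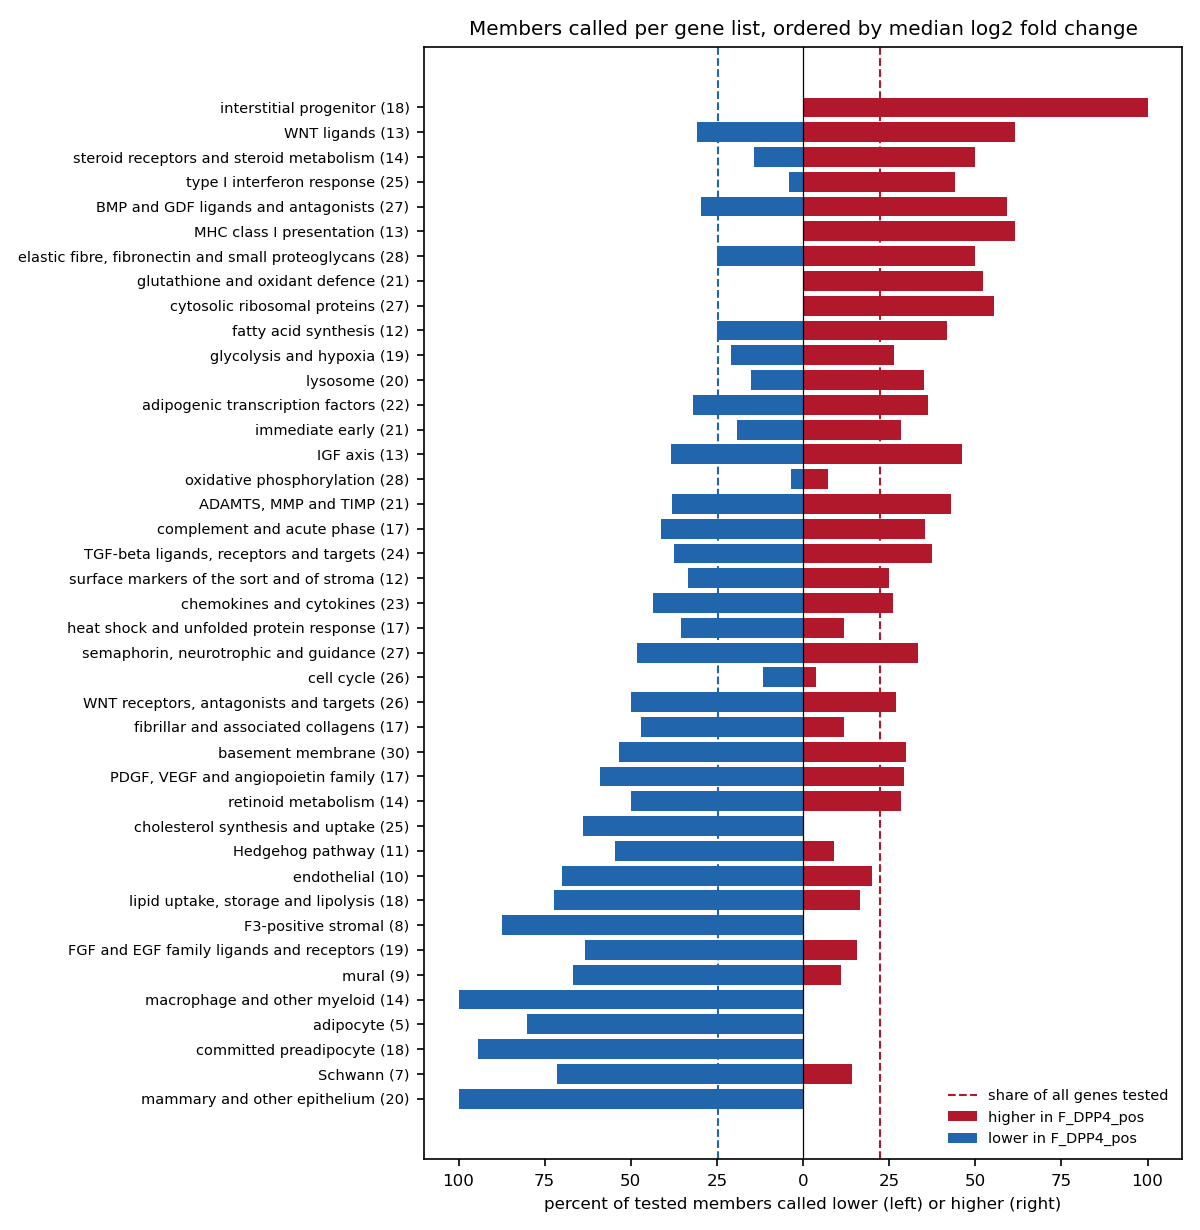
Percent of the tested members of each gene list that were higher (red, right) or lower (blue, left) in F_DPP4_pos, with the number tested in brackets and lists ordered by median log2 fold change. Dashed lines give the shares of all tested genes, 22.4% higher and 24.8% lower; the interstitial progenitor list lies wholly to the right, and the epithelial and myeloid lists lie wholly to the left.

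Among 196 genes of transcription factor families 51 were higher and 72 lower. For this family and those below, the shares of all tested genes to compare with are 22.4% higher and 24.8% lower. Irf4, a factor of adipose lipid metabolism and of lymphocytes, had 4426, 3960 and 4629 normalised counts in F_DPP4_pos, against 1183, 598 and 405 in F_DPP4_neg (2.71 ± 0.30, limma adjusted p = 0.000102). Osr2 (1.80 ± 0.14), Tbx5 (1.77 ± 0.22), Irx1 (1.74 ± 0.18) and Ebf3 (1.69 ± 0.16) were also higher. Runx2, the bone-forming factor, had 44.0, 30.2 and 42.1 in F_DPP4_pos, against 293, 298 and 366 in F_DPP4_neg (-3.02 ± 0.17, adjusted p = 2.44e-06), and Tbx2 fell by 3.03 ± 0.19. Foxa1, a factor of mammary luminal cells, fell by 4.43 ± 0.38 and was highest in F_DPP4_neg replicate 2. Of 71 CD antigen and integrin genes 16 were higher and 32 lower: Itgb7 (2.75 ± 0.31) and Itga11, a collagen receptor of fibroblasts (1.65 ± 0.18), rose, and Itga6 (-3.38 ± 0.22) and Itgb4 (-2.98 ± 0.34), which pair at the base of epithelia, fell. Of 231 solute carrier genes 47 were higher and 69 lower, from Slco3a1 (2.26 ± 0.26) to Slc5a5, the iodide transporter used by lactating mammary epithelium (-4.15 ± 0.33).

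Surface genes used to name stromal cells differed in direction. Ly6a, the Sca-1 gene, had 20197, 20935 and 24229 normalised counts in F_DPP4_pos, against 10444, 7638 and 7284 in F_DPP4_neg (1.38 ± 0.14, limma adjusted p = 7.22e-05), and Cd34 had 29665, 30471 and 33125 in F_DPP4_pos, against 15119, 10024 and 8991 in F_DPP4_neg (1.49 ± 0.18, adjusted p = 0.000139). Cd9, whose protein has marked fibrogenic progenitors, was lower, with 1318, 1404 and 1328 in F_DPP4_pos, against 2597, 3480 and 2911 in F_DPP4_neg (-1.14 ± 0.10, adjusted p = 3.46e-05). Of the 12 genes of this list 3 were higher and 4 lower, or 2 higher and 7 lower with quantile normalization.

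Transcripts of other cells were concentrated in F_DPP4_neg. Every one of 20 tested epithelial markers, mammary ones included, was lower in F_DPP4_pos, with a median of -4.45 and no overlap in any, although 6 of the 20 passed the minimum only through F_DPP4_neg. Epcam, the epithelial adhesion molecule, had 30.0, 61.5 and 43.0 normalised counts in F_DPP4_pos, against 803, 1913 and 1149 in F_DPP4_neg (-4.78 ± 0.31, limma adjusted p = 5.74e-06), and Krt8, a keratin of simple and luminal epithelium, had 105, 199 and 119 in F_DPP4_pos, against 2851, 6780 and 4071 in F_DPP4_neg (-4.97 ± 0.31, adjusted p = 3.8e-06). Replicate 2 was the highest library of either group for both genes, and over the list it was so for 16 of 20 in F_DPP4_pos and 15 of 20 in F_DPP4_neg. Krt14 and Krt5, keratins of basal and myoepithelial cells, were at 0 to 2.48 in F_DPP4_pos, against 20.1 to 49.5 in F_DPP4_neg. These are noted as RNA of other cells, and their part in the decreases reported above was not tested.

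Mast cell genes, a list drawn up after their values had been seen, made up 4 of the 15 lowest fold changes among genes whose higher group averaged 100 or more. Of the 11 genes 9 passed the minimum, 7 of them through F_DPP4_neg alone, so that their direction was set by the choice; all 9 were lower in F_DPP4_pos. Mcpt4, a chymase of connective tissue mast cells, had 8.0, 7.80 and 4.13 normalised counts in F_DPP4_pos, against 533, 556 and 605 in F_DPP4_neg (-6.25 ± 0.22, limma adjusted p = 2.93e-07). Cma1, another chymase, had 5.0, 0.975 and 1.65 in F_DPP4_pos, against 392, 327 and 449 in F_DPP4_neg (-6.94 ± 0.37, adjusted p = 1.89e-06), and Cpa3, a mast cell carboxypeptidase, had 2.0, 4.88 and 0.826 in F_DPP4_pos, against 307, 295 and 385 in F_DPP4_neg (-6.69 ± 0.38, adjusted p = 2.44e-06). The fold changes of such low genes depend on the added 1. Unlike the epithelial markers, mast cell genes were even among F_DPP4_neg libraries, with sums of 2370, 2276 and 2613, beside 111, 73.2 and 53.7 in F_DPP4_pos. The chymase and tryptase genes have close relatives, so reads may be shared among them.

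Myeloid markers were lower in F_DPP4_pos for all 14 tested, 2 of which passed the minimum only through F_DPP4_neg, with a median of -1.67, and the 15 listed genes summed to 339 to 416 in F_DPP4_pos and 796 to 1711 in F_DPP4_neg, where replicate 3 was highest for all 14. Cd14 had 77.0, 60.5 and 66.1 normalised counts in F_DPP4_pos, against 205, 192 and 236 in F_DPP4_neg (-1.62 ± 0.14, limma adjusted p = 2.31e-05). The endothelial list summed higher in F_DPP4_pos, 6480 to 7433, against 1968 to 2835 in F_DPP4_neg, where Tek and Kdr were the 2 that rose: Tek, the angiopoietin receptor, had 4570, 5494 and 4695 in F_DPP4_pos, against 1707, 1045 and 968 in F_DPP4_neg (2.03 ± 0.19, adjusted p = 3.55e-05), and Kdr, a VEGF receptor, had 1400, 1532 and 1594 in F_DPP4_pos, against 369, 200 and 187 in F_DPP4_neg (2.65 ± 0.22, adjusted p = 1.93e-05). Of the remaining 8 endothelial genes 7 fell, such as Vwf, the clotting factor of vessel walls, by 2.01 ± 0.35. Of 9 mural genes 6 were lower and 1 higher, with Notch3 at 59.0, 66.3 and 49.6 in F_DPP4_pos, against 555, 834 and 668 in F_DPP4_neg (-3.52 ± 0.16, adjusted p = 9.69e-07). Of 7 Schwann cell genes 5 were lower, Sox10 by 3.21 ± 0.36 among them, and Mbp, a myelin gene, was higher by 1.13 ± 0.11. However, 4 of the 7 passed the minimum only through F_DPP4_neg, so their direction was set by it. With a minimum of 50, 1 Schwann cell gene was called lower. Of 3 lymphocyte markers that passed the minimum 1 was lower, and neither haemoglobin gene was called; Wt1, the only mesothelial marker tested that is not also epithelial, was at 54.0, 46.8 and 40.5 in F_DPP4_pos and 44.5, 56.5 and 53.7 in F_DPP4_neg.

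**Figure D4:**
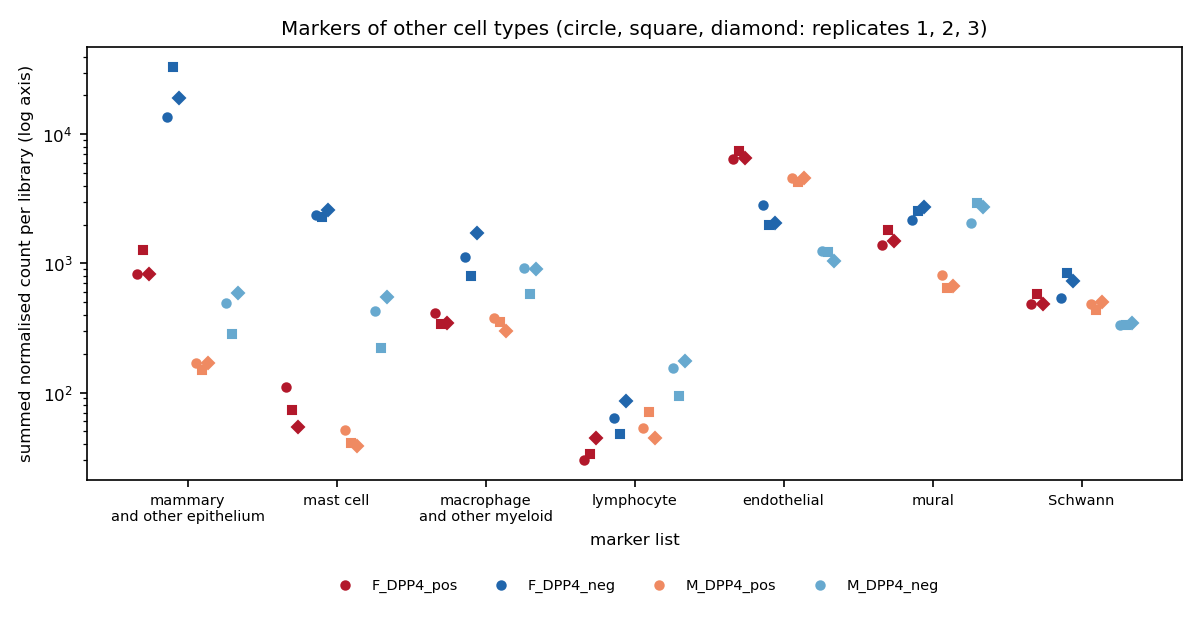
Summed normalised counts per library, on a log axis, of marker lists of 7 other cell types, with F_DPP4_pos, F_DPP4_neg, M_DPP4_pos and M_DPP4_neg from left to right. Epithelial markers reach 13685 to 33444 in F_DPP4_neg alone, while the endothelial sum, carried by Tek and Kdr, is higher in DPP4_pos of both sexes.

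The same subpopulations of male mice, M_DPP4_pos and M_DPP4_neg, served to ask which changes depended on sex. They were sorted from the same depot and strain, with 3 libraries each, and held less epithelial RNA: the 22 listed genes summed to 149 to 171 normalised counts in M_DPP4_pos, where Cldn3 made up 83.1 to 113, and to 282 to 593 in M_DPP4_neg. Krt8 was at 0 to 2.26 in M_DPP4_pos and at 0 to 2.04 in M_DPP4_neg, and Epcam at 1.10 to 3.39 and 3.70 to 5.11. The test was the difference of the log2 fold changes, F minus M, in 1 limma fit of these 12 libraries. It was called for 3250 genes (24.4%), with 1333 (10%) higher and 1917 (14.4%) lower in F. Of the called differences 41.0% were higher, and with quantile normalization 51.0%. Of the genes called in F, 5162 (81.9%) had the same sign in M. Of the 822 genes lower by more than 4-fold in F, 496 were lower by more than 2-fold in M. Another 304 lay within 2-fold in M, and 22 were higher by more than 2-fold. However, 273 of the 822 were under 10 in every M library, where the added 1 draws the M fold towards 0. Of the 163 higher by more than 4-fold in F, 141 were higher by more than 2-fold in M, and 12 were under 10 in every M library.

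Most listed interstitial and committed preadipocyte genes had smaller fold changes in F than in M, as counted below, while Igfbp5 (2.09 in F and 1.37 in M), Ly6a (1.38 and 0.72) and Sfrp4 (2.23 and 1.4) had larger ones with a called difference. Pi16 had a log2 fold change of 3.29 in F and 6.63 in M, a difference of -3.34 ± 0.40 (limma adjusted p = 2.75e-05), and its M values were 69151, 67270 and 79305 in M_DPP4_pos, against 815, 664 and 700 in M_DPP4_neg. Bmp7 had 2.78 in F and 7.47 in M (-4.70 ± 0.55, adjusted p = 2.32e-05), with 821, 774 and 913 in M_DPP4_pos, against 8.12, 4.08 and 1.23 in M_DPP4_neg. For both genes the DPP4_pos levels of the sexes were alike in size, and the DPP4_neg levels were far higher in F. Wnt10b (-3.17 ± 0.49) and Gpr1 (-4.62 ± 0.62) showed the same arrangement. Sema3e (-4.35 ± 0.50) differed from it, since its DPP4_pos level was also unlike between the sexes, 460 to 621 in F_DPP4_pos and 2888 to 3033 in M_DPP4_pos. Dpp4 RNA itself was at 243, 235 and 258 in M_DPP4_neg, below the 1150 to 4213 of F_DPP4_neg. The part of this residual Dpp4 RNA in the sex difference was not tested. Of the 18 interstitial genes 13 had a called lower difference and none a higher one, and of the 18 committed preadipocyte genes 13 had a called higher difference. Sparcl1, at -3.10 in F and -5.30 in M, differed by 2.20 ± 0.22 (adjusted p = 6.79e-06), while Fabp4, at -3.57 in F and -4.08 in M, had a difference of 0.51 ± 0.27 that was not called (adjusted p = 0.2).

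Of the 15 lowest fold changes in F, 10 were called different between the sexes, such as Trim9 (-4.07 ± 0.70) and Col13a1 (-4.82 ± 0.78). The other 5 were not, Lamc3 and 4 mast cell genes. Trim9 was at 0 to 7.15 and Col13a1 at 0 to 5.11 in the M libraries, so their M fold depends on the added 1. Of the others called, Kera, Lypd3, Gria1, Wfdc2, Galnt3, Gipc2 and Fgb were also under 10 in every M library. Of the other tested mast cell genes, Hdc (-2.78 ± 0.35), Mrgprb1 (-2.52 ± 0.79) and Tpsab1 (-2.36 ± 0.66) were called different, and Fcer1a and Kit were not. The mast cell list summed to 222 to 552 in M_DPP4_neg, against 2276 to 2613 in F_DPP4_neg. Lamc3 was at -6.51 in F and -6.56 in M, a difference of 0.04 ± 0.61 (limma adjusted p = 0.971). In M it had 20.3, 6.92 and 2.20 normalised counts in M_DPP4_pos, against 624, 829 and 868 in M_DPP4_neg. Gli1 was at -3.44 in F and -2.94 in M and was not called different, and likewise Notch3, at -3.52 in F and -3.76 in M.

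Postn, Nt5e and Spon1 had opposite signs in the sexes. Postn fell in F (-1.71) and was at 0.53 in M, a difference of -2.24 ± 0.18 (limma adjusted p = 8.17e-07), with 20300, 23365 and 21006 normalised counts in M_DPP4_pos, against 16407, 13526 and 14855 in M_DPP4_neg. Nt5e, which encodes the CD73 ectonucleotidase used as a stromal marker, had 35.0, 40.0 and 42.1 in F_DPP4_pos, against 90.6, 101 and 105 in F_DPP4_neg (-1.32 ± 0.15), and 557, 648 and 663 in M_DPP4_pos, against 165, 178 and 162 in M_DPP4_neg (1.88), a difference of -3.20 ± 0.17 (adjusted p = 1.83e-08). Spon1, a secreted adhesion protein gene, was the reverse, with 9051, 8434 and 12549 in F_DPP4_pos, against 4919, 3650 and 3677 in F_DPP4_neg (1.29 ± 0.16), and 573, 433 and 409 in M_DPP4_pos, against 2041, 3105 and 2644 in M_DPP4_neg (-2.45), a difference of 3.74 ± 0.25 (adjusted p = 1.67e-07). In all 3 genes the libraries of a group lay close together in each sex. Greb1 was higher in F_DPP4_pos, as above, and was at 4.52, 1.15 and 2.20 in M_DPP4_pos and 2.03, 15.3 and 3.70 in M_DPP4_neg, a difference of 3.07 ± 0.77 (adjusted p = 0.0089). Its M libraries were near 0 and overlapped, so no direction was read from them.

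**Figure D5:**
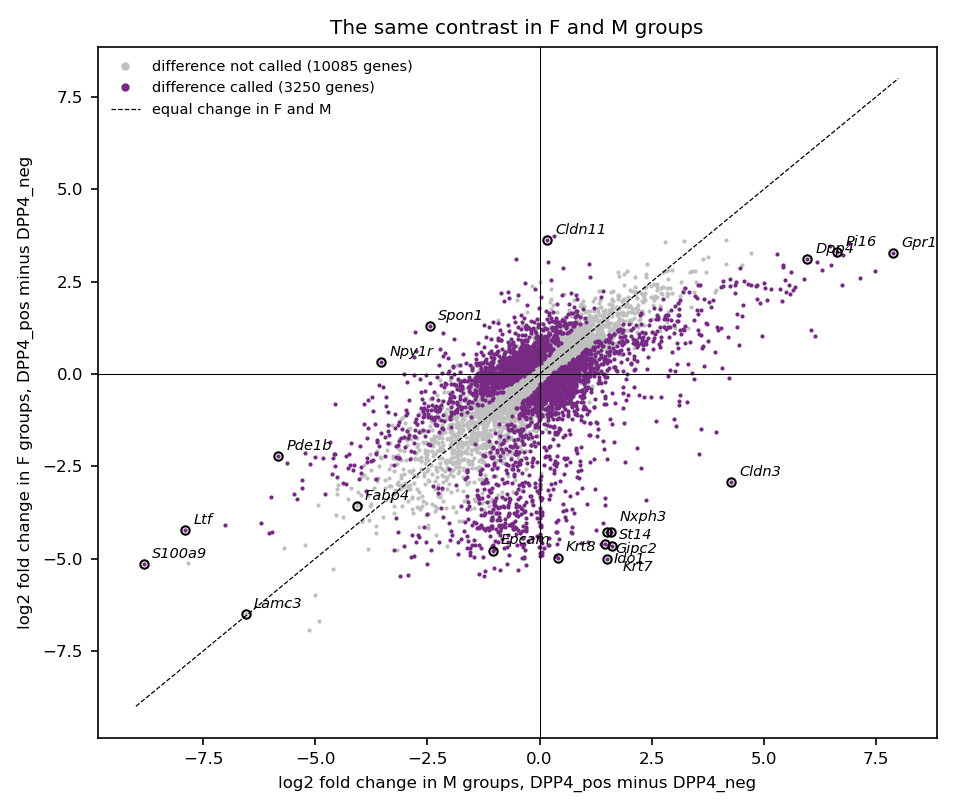
Log2 fold change of DPP4_pos minus DPP4_neg in F groups (vertical axis) against M groups (horizontal axis), 1 point per tested gene, purple where the F minus M difference was called by limma; the dashed line marks equal change. Pi16, Dpp4 and Gpr1 lie to the right of the line with larger changes in M, Lamc3 and Fabp4 lie near it, and epithelial genes such as Krt8, Epcam and Cldn3 lie far below it.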

How the data were processed

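RNA of sorted inguinal cells was extracted with Trizol and made into libraries with the NEBNext Ultra II kit from 0.5 ug of total RNA, per the labels' protocols. The deposited signal values are the authors' gene counts divided by 1 size factor per library. The submitters' processing notes list DESeq2 1.6.3, featureCounts 1.4.6, HISAT2 2.0.1 and Trim Galore 0.4.1, and GRCm38 as the genome build; their order, the annotation and the strand setting are not given in the sources used here, so reads of overlapping antisense genes cannot be told apart. The values are whole reads times a step, from which the read totals were recovered; genes without a symbol held 0.0592% to 0.0711% of them.

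Genes that reached 10 in 3 or more of the 6 libraries were tested with limma 3.58.1 (R 4.3.3), with a mean-variance trend, on log2(value + 1), and p-values were adjusted by Benjamini-Hochberg over all 13335 genes. Fold changes on this scale understate the change of low genes. The F minus M difference was the interaction in a fit of 12 libraries with the same genes. Libraries with the same replicate number deviated together (correlations 0.147, 0.24 and 0.121, and all other pairs below 0). Each group was centred on its mean, so positive values of some pairs push the others below 0, which adds no evidence. The number was taken to pair libraries in the replicate block only, and the main tests used no pairing. This pairing comes from the data and the shared numbers, not from a stated litter or day.

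The members and gene lists were chosen with earlier results of these data known. Named genes were up to 6 called members of each list by size of change, the 15 highest and 15 lowest fold changes, the 8 most abundant past 4-fold in each direction, 6 at each end of 3 gene families, and 6 at each end of the F minus M difference, 306 in all; a few other list members are given to complete a group and were chosen after their values were seen. Alternatives were a pseudocount of 5, no filter, a minimum of 50, quantile normalization, a fit of all 24 libraries, limma without the trend, a replicate block, each library left out, and edgeR 4.0.16 on recovered reads. The tests were tried on simulated data first. Gene positions are from GENCODE M21, matched for 12715 genes (95.4%), and promoters from RefSeq on GRCm38.p6. Some genes of these lists are counted but not reported by name here.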

Additional observations from a re-analysis of the deposited data

Results flagged for a closer look

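Of 306 named genes 167 had a called F minus M difference in limma, of which 38 had opposite signs in F and M and 13 were past 2-fold in both. The difference of the log2 fold change itself was tested for each. It was lowest, -7.21, for Cldn3, a tight junction gene with 40.0, 56.6 and 30.6 normalised counts in F_DPP4_pos, against 203, 522 and 315 in F_DPP4_neg, and with 89.3, 83.1 and 113 in M_DPP4_pos, against 4.06, 4.08 and 3.70 in M_DPP4_neg. It was -6.51 for Gipc2 (-7.38 without M_DPP4_neg replicate 1), -6.28 for Krt7 (-6.96 without M_DPP4_neg replicate 2), -6.06 for Ido1, -5.86 for Nxph3 and -5.78 for St14. Gipc2 and Krt7 were near 0 in M, so their M fold depends on the added 1.

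The difference was -4.81 for Gata3, -3.52 for Egln3 and -3.49 for Erbb3. Cd24a, a surface marker of epithelium and progenitors, had -4.22, with 296, 417 and 264 normalised counts in F_DPP4_pos, against 558, 1096 and 697 in F_DPP4_neg, and 816, 782 and 938 in M_DPP4_pos, against 137, 75.6 and 112 in M_DPP4_neg. Nt5e had -3.20 and Col6a5 -2.45.

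The difference was positive for Spon1 (3.74), Cldn11 (3.46), Pde1b (3.61) and Npy1r (3.86). Npy1r, a receptor for neuropeptide Y, had 168, 164 and 255 normalised counts in F_DPP4_pos and 180, 139 and 144 in F_DPP4_neg, which did not pass the test, and 4.52, 5.77 and 8.81 in M_DPP4_pos, against 75.1, 69.4 and 106 in M_DPP4_neg. Ltf (3.68) and S100a9 (3.68), both near 0 in M_DPP4_pos, differed too; the edgeR test did not call Ltf (log2 difference 7.19, adjusted p = 0.0558), S100a9 (0.87, adjusted p = 0.949) or Cldn11 (2.05, adjusted p = 0.543). In limma, Cldn11 also lost its call in 8 of the 12 fits that left out a library, all but those without F_DPP4_pos replicate 2, F_DPP4_neg replicate 1, M_DPP4_pos replicate 3 or M_DPP4_neg replicate 1 (2.59 to 3.36, adjusted p = 0.0651 to 0.0924) and with quantile normalization (adjusted p = 0.0526), and S100a9 in 5 of them, without F_DPP4_pos replicate 1, F_DPP4_neg replicate 2, M_DPP4_pos replicate 2 or M_DPP4_neg replicate 1 or 3 (2.84 to 3.50, adjusted p = 0.0507 to 0.0605).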

How the results depend on the processing

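With a minimum of 50, 811 genes were lower past 2-fold in F_DPP4_pos instead of 1566, and 616 were lower past 2-fold in the F minus M difference, since fewer genes were tested. Leaving out each library in turn gave 5131 to 6180 called genes, 2406 to 2907 higher and 2663 to 3273 lower, with 654 to 846 higher and 1422 to 1652 lower past 2-fold. For the F minus M difference it gave 2592 to 3585 called, 1102 to 1519 higher and 1490 to 2066 lower, with 434 to 523 higher and 830 to 962 lower past 2-fold. Quantile normalization moved the median of all genes to 0.044, and B2m, higher by 0.40 otherwise, was at -0.0060 under it (limma adjusted p = 0.972); the cause was not tested. Of the 306 named genes 18 lost their call there, 9 without the trend, 4 without the filter and none with a pseudocount of 5. In leave-one-out fits 51 of 1836 named values lost their call. Calls in short lists also moved when 1 library was left out: the single higher Hedgehog and mural genes and 1 of the 2 higher collagens were not called in 3 to 4 such fits, and 1 of the 2 lower steroid genes in 2. With the replicate block 6644 genes were called, 6189 (98.2%) of the 6303 among them, and no named gene changed its call. The edgeR quasi-likelihood test, added after seeing the data and without F_DPP4_pos replicate 1, kept 5313 (84.3%); edgeR on all libraries was not run. The precision is limited by 3 libraries a group, and for genes under about 10 normalised counts by reads.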
